A study of Mus musculus with 12 samples.

Results

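Matrix metalloproteinases are zinc-dependent endopeptidases that cut the proteins of the extracellular matrix. Most are secreted as inactive proenzymes and gain activity once a propeptide is removed, and tissue inhibitors of metalloproteinases (Timps) block the active site. In endochondral bone formation the collagenase Mmp13 and the gelatinase Mmp9 are known for the removal of cartilage matrix at the border with bone, and the membrane-bound Mmp14 is known as an activator of the secreted gelatinase Mmp2. Their mRNAs were followed here through 3 successive segments of the embryonic mouse tibia.

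The genes were 10 family members that an earlier list for these data held, namely Mmp2, Mmp3, Mmp9, Mmp11, Mmp13, Mmp14, Mmp15, Mmp16, Mmp19 and Mmp23, and a probe set counted where its annotation gave one of these symbols and no other. Of the 10 genes, 9 had such a probe set, out of 18193 genes with one on the array, and Mmp15 was not analysed here. A probe set was tested if its mean signal reached 50 in at least 1 zone, which 7 of the members (Mmp2, Mmp9, Mmp11, Mmp13, Mmp14, Mmp16 and Mmp23) and 11808 genes in all did. Mmp3 and Mmp19 stayed under that floor in every zone. Where a gene had several probe sets, the one with the highest mean log2 signal stood for it.

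Tibiae came from CD1 mouse embryos at embryonic day 15.5, with no treatment and no genetic change named in the labels. Each bone was cut by hand where its appearance changed. Zone I was the outer end, where chondrocytes rest and divide, zone II the neighbouring stretch in which they enlarge, or become hypertrophic, and zone III the part in which hypertrophy is complete and mineral is laid down. The segments of a zone were pooled within a litter before RNA isolation, and the 4 litters were separate experiments. Each zone was hybridized to 4 Affymetrix MOE 430 2.0 arrays, lettered A to D, 12 arrays in all. A zone is therefore a mixture of cell types averaged over embryos, and a change in the share of a cell type cannot be told apart from a change in RNA per cell.

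Signals are given in the linear intensity units of the deposited table, which had been scaled to a mean of 150.0 on every array after trimming 2% at each end. The number of arrays limits the precision, and levels of different genes come from different probes and were not set against each other. Correlations of log2 signal between arrays of a zone were 0.9479 to 0.9788. The ratio of 3' to 5' control probes was higher in zone III than in the other zones for Gapdh (1.98 to 2.28, against 1.25 to 1.76) and lower for beta-actin (1.70 to 2.02, against 2.09 to 3.23), and its part in the results was not tested. Markers of chondrocytes summed to 16223 to 20922 over 6 genes in zone I, with 23361 to 26202 for zone II and 7912 to 10217 for zone III, so all zones held their signal. Array A of zone II stood apart in its tissue markers. Its summed signal was 521 for 8 endothelial markers against 247 to 324 on the other zone II arrays, 805 for 6 skeletal muscle markers against 204 to 337, and 356 for 4 erythroid markers against 94.8 to 157. Array A of zone I also stood apart, with 1237 for endothelial markers against 666 to 834 on the other zone I arrays. Its skeletal muscle sum was 1910 against 398 to 737. In zone III array A had the highest erythroid sum, 448 against 258 to 289. Counts of members and most of their differences that rest on zone II are therefore also given without array A of zone II. Leaving out array A of zone I changed no count of members called.

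Between zones I and II the family split. Mmp9 and Mmp13 rose, Mmp2, Mmp11 and Mmp14 fell, and Mmp16 and Mmp23 did not pass the test, which was limma's with Benjamini-Hochberg adjustment and a threshold of 0.05. Of all 11808 genes 16% were called higher and 25.4% lower in zone II by the same rule. The median log2 difference was -0.14 over the 7 members and -0.09 over all genes.

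Between zones II and III the movement ran one way. Mmp9, Mmp11, Mmp13, Mmp14 and Mmp23 rose, 0 members fell, and Mmp2 and Mmp16 did not pass. The share of all genes called higher was 30.8% and of those called lower 22.7%. The median log2 difference was 1.80 over the 7 members, beside 0.08 over all genes. The members passed the floor partly through the zone in which they were high, so these counts and medians describe the tested genes alone.

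Across the whole length of the bone, from zone I to zone III, Mmp9, Mmp13, Mmp14 and Mmp23 rose, Mmp2 fell, and Mmp11 and Mmp16 did not pass. Of all genes 21.6% were called higher and 21.7% lower. The median log2 difference was 0.95 over the 7 members and -0.01 over all genes. Without array A of zone II the counts were the same in all 3 comparisons.

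**Figure D1:**
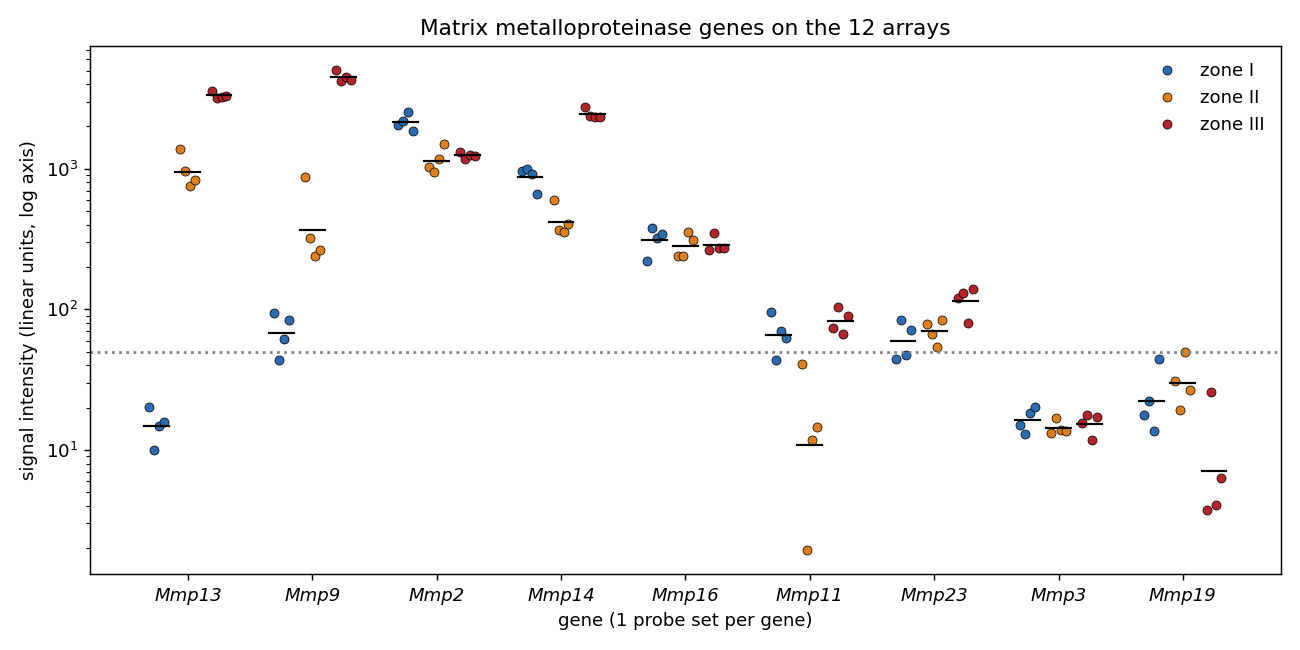
Signal intensity of 9 matrix metalloproteinase genes on the 12 arrays (linear units on a log axis), with 1 point per array, coloured by zone, a bar at the geometric mean of the 4 arrays of a zone, and a dotted line at the floor of 50. Mmp13 and Mmp9 climbed through the zones, from zone I means of 15.2 and 70.8 to zone III means of 3341 and 4515, Mmp14 and Mmp11 were lowest in zone II, Mmp2 was highest in zone I, and Mmp3 lay between 11.7 and 20.1 on every array.

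Mmp13, collagenase 3, cleaves fibrillar collagens such as the type II collagen of cartilage, and had the largest difference between zones I and III among the probe sets that stood for the 7 tested members. The second Mmp9 probe set had a larger one, 9.26 on the log2 scale against 7.82 for Mmp13. In zone I the Mmp13 signals were 20.3, 10.02, 14.9 and 15.8 on arrays A to D, below the floor of 50. In zone II they were 1387, 957, 753 and 835, and in zone III 3590, 3200, 3256 and 3318. The zones did not overlap in either step, and zone III arrays lay close together. The signal was 983 ± 282 (SD, n = 4) in zone II and 3341 ± 173 (SD, n = 4) in zone III.

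The first step was by far the larger. Into zone II Mmp13 rose by a log2 difference of 6.02 ± 0.22 (SE, limma adjusted p = 4.09e-09), which is 64.7-fold, and ranked 4 of 11808 genes from the highest. The difference to zone III was then 1.80 ± 0.22 (adjusted p = 2.31e-05), or 3.49-fold, and the rank was 798. Zone III lay 226-fold over zone I (adjusted p = 3.01e-10), and the rank was again 4. The folds against zone I, which lay under the floor, depended on the treatment of low signals, and with 16 added to every signal the log2 differences against zone I became 4.97 for zone II and 6.76 for zone III. Without array A of zone II the steps were 5.84 and 1.98.

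The first step of Mmp13 ran alongside the markers of hypertrophic chondrocytes. The summed signal of 4 such markers (Col10a1, Ihh, Panx3 and Pth1r) was 439 to 625 in zone I, 9720 to 11190 in zone II and 5596 to 6896 in zone III. All 4 rose from zone I to zone II, and 3 of the 4 fell from zone II to zone III, where Mmp13 rose. Markers of osteoblasts, which also express Mmp13, summed to 1184 to 1757, 4098 to 6390 and 11584 to 12815 over 6 genes. Of these, 5 rose in each step, and without array A of zone II 4 rose and 1 fell in the first. Ibsp made up most of the zone II sum, at 2688 to 4033 per array. The study also names Ibsp among factors of late hypertrophic chondrocytes. Col1a1 had a log2 difference of -0.54 into zone II, which did not pass the test (limma adjusted p = 0.072). The part of either cell type in the Mmp13 signal was not tested.

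Of the members, 6 had a promoter window in the RefSeq table for GRCm38.p6, here the 250 bases before the annotated start of transcription. Windows were searched on both strands for 2 motifs, the AP-1 motif TGANTCA, where N is any base, and the Runx motif TGTGGT, which reads ACCACA on the other strand. AP-1 and Runx proteins are known regulators of genes in bone and hypertrophic cartilage. Among 32851 windows, 6.75% held the AP-1 motif, 14.0% the Runx motif and 1.01% both. The windows below are shown because Mmp13 held both motifs, Mmp3 shared the AP-1 motif but stayed under the floor in every zone, Mmp14 held only a Runx motif, and Mmp11 held neither. Capitals mark the motif matches, which do not overlap, and each window is printed 5' to 3' on the strand of its gene.
Mmp13: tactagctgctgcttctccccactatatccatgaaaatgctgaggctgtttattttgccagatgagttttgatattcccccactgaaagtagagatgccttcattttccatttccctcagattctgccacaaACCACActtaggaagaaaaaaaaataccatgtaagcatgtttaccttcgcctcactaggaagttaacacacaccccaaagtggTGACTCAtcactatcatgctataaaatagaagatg
Mmp3: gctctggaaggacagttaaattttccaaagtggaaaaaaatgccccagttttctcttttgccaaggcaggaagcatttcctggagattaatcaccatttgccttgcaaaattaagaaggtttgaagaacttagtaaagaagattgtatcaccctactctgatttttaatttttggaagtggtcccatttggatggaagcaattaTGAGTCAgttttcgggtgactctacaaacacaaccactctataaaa
Mmp14: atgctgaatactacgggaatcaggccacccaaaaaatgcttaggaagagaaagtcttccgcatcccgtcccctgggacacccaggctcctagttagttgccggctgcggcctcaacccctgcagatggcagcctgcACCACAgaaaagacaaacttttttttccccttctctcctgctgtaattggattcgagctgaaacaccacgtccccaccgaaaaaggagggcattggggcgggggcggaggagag
Mmp11: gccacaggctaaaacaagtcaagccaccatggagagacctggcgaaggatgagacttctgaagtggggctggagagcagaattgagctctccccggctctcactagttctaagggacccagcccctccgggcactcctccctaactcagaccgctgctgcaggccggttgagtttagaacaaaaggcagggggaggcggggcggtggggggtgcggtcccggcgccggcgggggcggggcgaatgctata

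The Mmp13 window lies at chr9:7272264-7272513 on the plus strand. Its AP-1 match, TGACTCA, spans bases 35 to 29 before the start, and its Runx match spans bases 118 to 113. The Mmp3 window, at chr9:7445572-7445821 on the plus strand, holds TGAGTCA at bases 46 to 40 before the start. Both genes belong to a cluster of 10 Mmp genes on chromosome 9 that also holds Mmp10. The Mmp14 window is at chr14:54431348-54431597 on the plus strand with its Runx match at bases 114 to 109, and the Mmp11 window at chr10:75932503-75932752 on the minus strand. Mmp15 held neither motif, and 1 of the 2 windows of Mmp23 held a Runx match. A match of letters is a description of the window and not a measured binding site.

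Mmp9, gelatinase B, degrades denatured collagens and type IV collagen and is known for its expression in osteoclasts. Its zone I signals were 93.7, 44.0, 62.0 and 83.6 on arrays A to D. In zone II they were 872, 321, 238 and 265, and in zone III 5047, 4242, 4475 and 4295. The zones did not overlap, but array A of zone II lay far above the other arrays of its zone. The zone means were 70.8 ± 22.3, 424 ± 301 and 4515 ± 369 (SD, n = 4 each).

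Mmp9 made its larger step between zones II and III, and Mmp13 between zones I and II. Within a gene the steps were not tested against each other. The log2 difference from zone I was 2.42 ± 0.36 (limma adjusted p = 0.000227), or 5.36-fold, in zone II. Between zones II and III it was 3.63 ± 0.36 (adjusted p = 4.28e-06), or 12.4-fold. Zone III lay 66.3-fold over zone I (adjusted p = 7.54e-08), rank 11 of 11808 genes. Without array A of zone II the steps were 2.00 and 4.05, and both passed.

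The second Mmp9 probe set gave the same order with wider steps. Its means were 5.25 ± 1.32, 117 ± 119 and 3157 ± 508 along the zones (SD, n = 4 each). The log2 differences were 4.05 from zone I to zone II and 5.21 from zone II to zone III, and both passed the test. Its zone I signals were far below the floor, so its folds over zone I are the less certain ones. On array A of zone II it read 294, against 45.5 to 81.8 on the other zone II arrays.

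Markers of several cell types were higher in zone III than in zone II, as Mmp9 was. The osteoblast list, whose sums are given with Mmp13, rose in 5 of 6 genes in each step, while the other lists here rose mainly in the second. The summed signal of 8 osteoclast markers, among them Acp5 and Ctsk, was 662 to 716 in zone I, 465 to 846 in zone II and 8566 to 10168 in zone III, and all 8 were called higher in zone III than in zone II. In the step into zone II, where Mmp9 rose, 1 of the 8 was called higher and 1 lower, and without array A of zone II 0 rose and 1 fell. For 7 macrophage markers the sums were 1127 to 1977, 560 to 882 and 4258 to 5076, with C1qa under 50 in every zone, and for 8 endothelial markers 666 to 1237, 247 to 521 and 2618 to 2940. In the first step 0 macrophage markers rose and 3 fell (4 without array A of zone II), and all 8 endothelial markers fell. On array A of zone II, which had the highest Mmp9 signal of its zone, the osteoclast sum was 846 against 465 to 602 on the other arrays. Osteoclasts were not singled out there, since that array was highest of its zone for every list but neutrophils. Its sums were 6390 against 4098 to 4886 for osteoblasts, 882 against 560 to 674 for macrophages and 521 against 247 to 324 for endothelial cells. The part of these cells in the Mmp9 signal was not tested. Of 6 neutrophil markers 4 (S100a8, S100a9, Ltf and Camp) were under 50 in every zone, and the list summed to 157 to 220, 146 to 175 and 129 to 176.

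**Figure D2:**
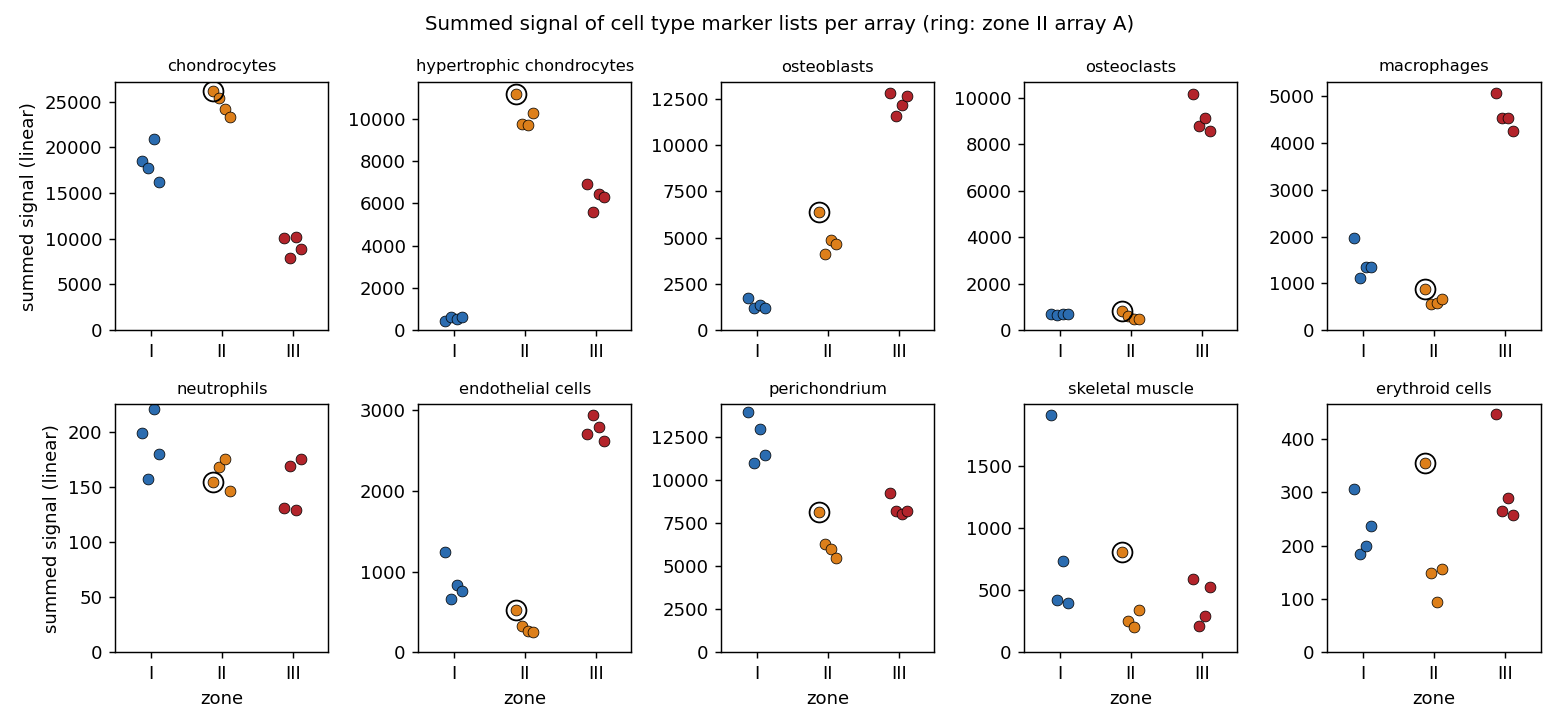
Summed linear signal of the markers of 10 cell types on each array, by zone, with array A of zone II ringed and every axis starting at 0. The osteoclast sum was 8566 to 10168 in zone III and at most 846 elsewhere, endothelial and macrophage sums were lowest in zone II, and the ringed array was the highest of its zone for every list but neutrophils.

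Mmp2, gelatinase A, is the other gelatinase and is widely made by fibroblasts and other mesenchymal cells. It ran the opposite way to Mmp9 in the first step and did not pass the test in the second. Its zone I signals were 2051, 2198, 2523 and 1861, its zone II signals 1022, 947, 1170 and 1490, and its zone III signals 1327, 1182, 1261 and 1241. Every zone I array lay above every other array, while zones II and III overlapped. The means were 2158 ± 280, 1157 ± 240 and 1253 ± 59.8 (SD, n = 4 each).

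Mmp2 fell 1.88-fold from zone I to zone II (log2 difference -0.91 ± 0.15, limma adjusted p = 0.00044). Zone III was 1.71-fold under zone I (-0.78 ± 0.15, adjusted p = 0.0011). Between zones II and III the log2 difference was 0.14 (adjusted p = 0.478) with a 95% interval from -0.19 to 0.46, which leaves out a 1.5-fold change. The sign of that last value turned when each array was centred on its median, to -0.11, and with centring on ribosomal protein genes it was 0.53 (adjusted p = 0.0133). The second Mmp2 probe set gave -0.69 for zone II against zone I, 0.01 for zone III against zone II and -0.69 for zone III against zone I, with the first and last passing. Leaving out array A of zone II gave steps of -0.86, which passed, and 0.08, which did not.

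The list of 7 markers of perichondrium and fibrous tissue moved in the same direction as Mmp2 in the first step. It summed to 11004 to 13997 in zone I, 5462 to 8175 in zone II and 8023 to 9272 in zone III, and 5 of the 7 fell from zone I to zone II while 1 rose. In the second step, where Mmp2 did not pass, 5 rose and 1 fell. Without array A of zone II 5 of these markers fell and 0 rose in the first step. Their part in the Mmp2 signal was not tested.

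Mmp14, the membrane-type enzyme MT1-MMP, cleaves collagen at the cell surface and activates proMmp2. Its signals were 957, 990, 911 and 666 in zone I, 595, 365, 354 and 406 in zone II, and 2754, 2392, 2323 and 2336 in zone III. The 3 zones did not overlap, and zone II was the lowest. The means were 881 ± 147, 430 ± 112 and 2451 ± 204 (SD, n = 4 each). Mmp14 fell 2.07-fold from zone I to zone II (log2 difference -1.05 ± 0.18, limma adjusted p = 0.000614). It then rose 5.82-fold from zone II to zone III (2.54 ± 0.18, adjusted p = 2.69e-07) and ended 2.81-fold over zone I (adjusted p = 3.03e-05). Without array A of zone II the steps were -1.22 and 2.71.

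The other 2 Mmp14 probe sets did not wholly share the fall. One gave log2 differences of -1.65 and 3.65 for the steps, both passing. The other gave -0.19 (adjusted p = 0.526) and 1.72 (adjusted p = 2.89e-05), on signals of 27.0 to 47.7 in zone I and 29.6 to 43.2 in zone II that all lay under the floor. All 3 probe sets rose from zone I to zone III, by 1.49, 2.00 and 1.53. Several marker lists fell and then rose, as Mmp14 did. Endothelial markers fell in 8 of 8 cases and rose in 8 of 8, perichondrial markers fell in 5 of 7 (1 rose) and rose in 5 (1 fell), and macrophage markers fell in 3 of 6 (0 rose) and rose in 6. Without array A of zone II 0 perichondrial markers rose in the first step, and macrophage markers fell in 4 cases and then rose in 5. Their part in the Mmp14 signal was not tested.

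Mmp16, the membrane-type enzyme MT3-MMP, also activates proMmp2 and is closely related to Mmp14. It passed no test. Its signals were 219, 380, 324 and 342 in zone I, 240, 239, 354 and 311 in zone II, and 263, 347, 275 and 274 in zone III. The zones overlapped throughout, with means of 316 ± 68.9, 286 ± 56.5 and 290 ± 38.4 (SD, n = 4 each). The log2 differences were -0.14 (95% interval -0.55 to 0.27), 0.03 (-0.38 to 0.44) and -0.11 (-0.51 to 0.30) for zone II against I, III against II and III against I. All 3 intervals leave out a 1.5-fold change in either direction.

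Of the other 3 probe sets of Mmp16, one was under the floor. One gave -0.70 for zone III against zone I, with an interval of -1.30 to -0.10, arrays that did not overlap and an adjusted p of 0.0624 in the limma fit. Another gave -0.30 (adjusted p = 0.335) in that comparison. No tested probe set of Mmp16 passed in any comparison.

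**Figure D3:**
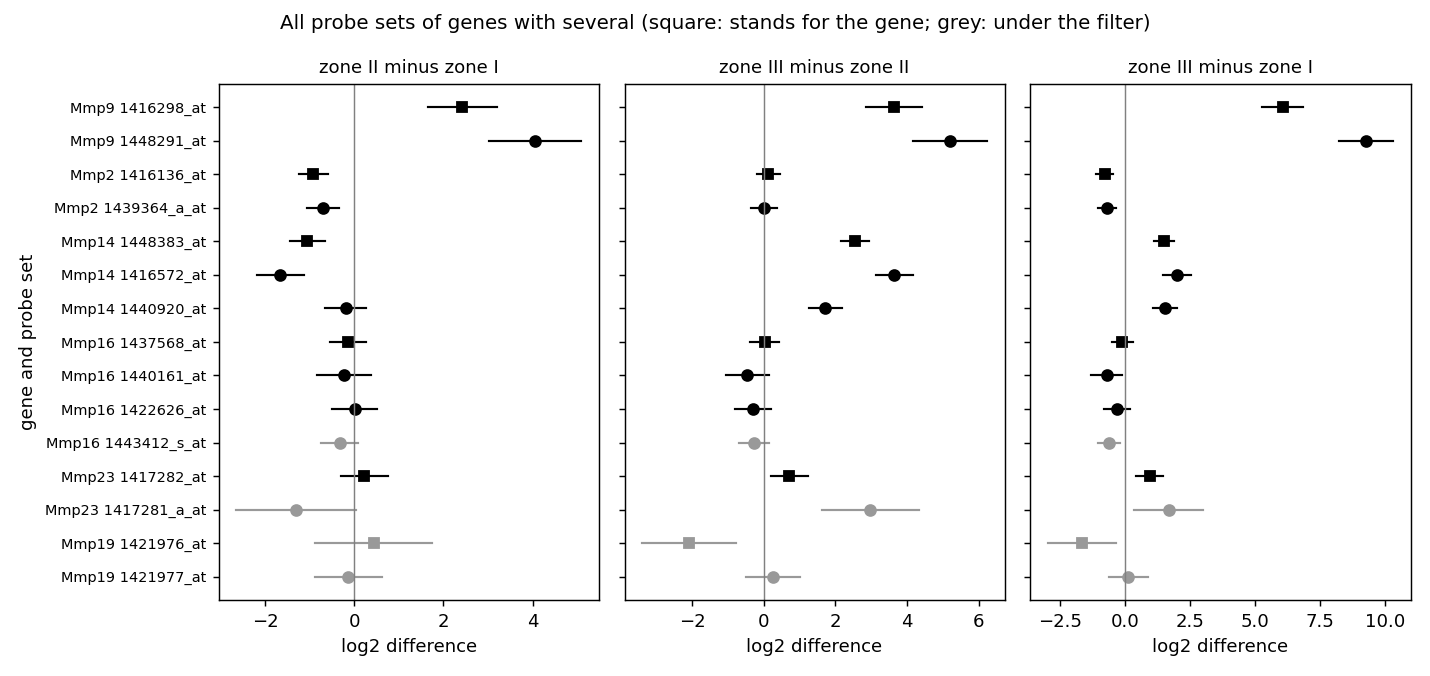
Log2 differences with 95% intervals for every probe set of the 6 members with more than 1, in 3 comparisons, where a square marks the probe set that stands for the gene and grey marks those under the floor of 50. Both probe sets of Mmp9 and of Mmp2 ran the same way in the comparisons with zone I, the 3 of Mmp14 were all called higher in zone III than in zone II, and those of Mmp16 spread from -0.11 to -0.70 for zone III against zone I.

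Mmp11, stromelysin 3, is activated inside the cell by furin and is known from stromal cells in remodelling tissue. It had low signals with a dip in zone II. They were 95.4, 43.5, 69.9 and 62.9 in zone I, 40.8, 1.94, 11.7 and 14.6 in zone II, and 73.3, 103, 66.5 and 90.4 in zone III. Zone II lay below both other zones on all arrays, although only just at array A. The means were 67.9 ± 21.5, 17.3 ± 16.6 and 83.4 ± 16.7 (SD, n = 4 each).

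Mmp11 fell 6.06-fold from zone I to zone II (log2 difference -2.60 ± 0.67, limma adjusted p = 0.00933) and rose 7.62-fold from zone II to zone III (2.93 ± 0.67, adjusted p = 0.00309). Zone III against zone I gave 0.33 (adjusted p = 0.733), with a wide interval from -1.14 to 1.80. The size of the dip depended on low signals. With 16 added to every signal it was -1.42 and then 1.69, and without array A of zone II it was -3.24 and then 3.57. Without array B of zone II, whose signal was 1.94, it shrank to -1.77 and then 2.10, and in each of these cases both steps passed. Mmp11 had 1 probe set, so no other measurement on the array bears on it.

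Mmp23, a metalloproteinase anchored in the membrane by its propeptide, was highest in zone III. Its signals were 44.5, 83.5, 47.0 and 71.7 in zone I, 78.8, 66.4, 53.9 and 84.0 in zone II, and 121, 131, 80.0 and 139 in zone III. Zone III held the 3 highest arrays of the 12, but its array C lay among the arrays of the other zones. The means were 61.7 ± 19.0, 70.8 ± 13.4 and 117 ± 26.0 (SD, n = 4 each).

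Mmp23 stood 1.93-fold higher in zone III than in zone I (log2 difference 0.95 ± 0.24, limma adjusted p = 0.00699). The step from zone II to zone III was 1.65-fold (0.72 ± 0.24, adjusted p = 0.0242). That step no longer passed when the run on the fluidics station was fitted as a block (0.66, adjusted p = 0.052), with quantile normalization (0.46, adjusted p = 0.151), with median centring (0.48, adjusted p = 0.108), with no floor (adjusted p = 0.0635), or without any 1 of zone II arrays B or C or zone III arrays A, B or D. Zone II against zone I gave 0.23 (adjusted p = 0.492), with an interval from -0.29 to 0.75. The steps without array A of zone II were 0.17 and 0.78 (adjusted p = 0.0294 for the latter). The second Mmp23 probe set, under the floor, read 48.7 ± 13.8 in zone III against 19.2 ± 11.7 in zone I and 6.67 ± 3.92 in zone II (SD, n = 4 each).

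Mmp19 and Mmp3 stayed under the floor and were not part of the test. Mmp19, a basement membrane protease, had signals of 17.8, 22.3, 13.6 and 44.7 in zone I, 31.1, 19.2, 50.1 and 26.9 in zone II, and 3.72, 25.8, 4.06 and 6.31 in zone III. Only 1 of the 12 arrays, zone II array C, exceeded 50, and 3 of the 4 zone III arrays were the lowest of all. With no floor the log2 difference of zone III against zone II was -2.09 (limma adjusted p = 0.0247), on signals that reached 50 on 1 array only. The second Mmp19 probe set read at most 0.67 on every array. Mmp3, stromelysin 1, had means of 16.6, 14.4 and 15.5 in zones I, II and III, and its zones overlapped.

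**Figure D4:**
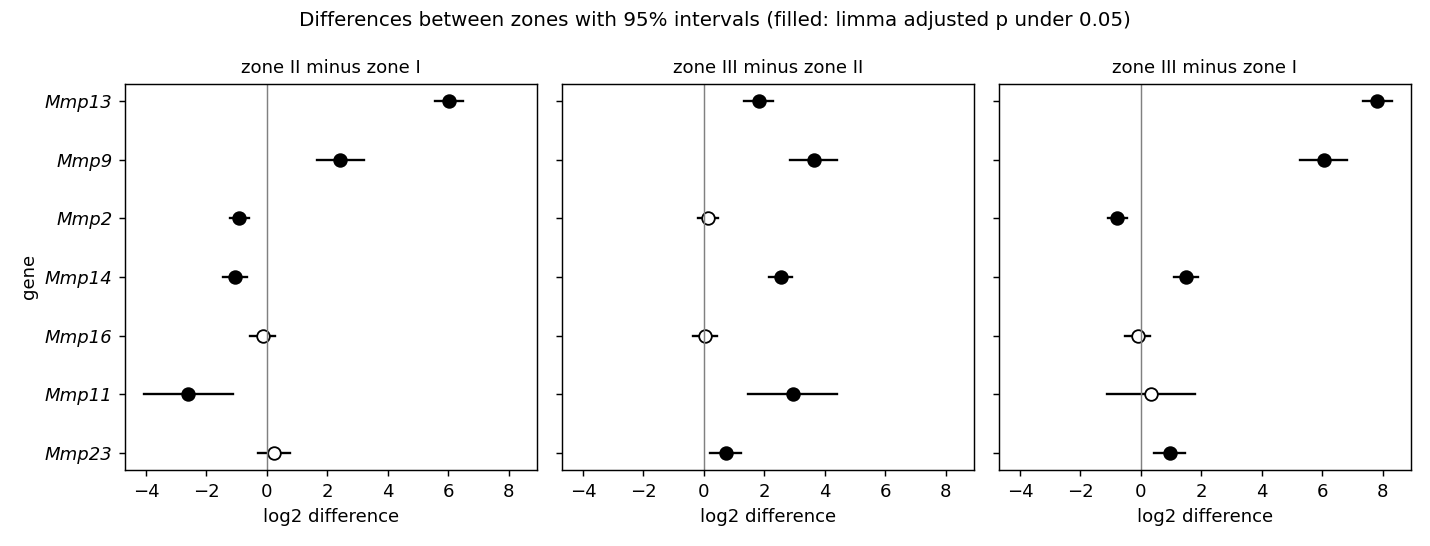
Log2 differences between zones for the 7 tested members, with 95% intervals from limma, filled where the adjusted p was under 0.05 and open otherwise. Mmp13 had its larger step between zones I and II (6.02 against 1.80) and Mmp9 between zones II and III (3.63 against 2.42), Mmp14 and Mmp11 turned from a fall to a rise, and Mmp16 lay near 0 throughout.

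The 4 pairs below were chosen by their roles, with earlier results of these data known. The p-values therefore do not rest on an independent choice of pairs. Whether the 2 members of a pair changed unequally was asked in 3 comparisons each. The measure was the difference of their log2 signals on the same array, so that a scaling factor common to an array cancels. An exact two-sided permutation test over 4 against 4 arrays was used, whose smallest possible p is 0.0286, and the adjustment was over the 12 tests.

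Mmp9 and Mmp13 changed unequally in both steps. In the first step Mmp9 gained less than Mmp13, by 3.59 on the log2 scale, and in the second it gained more, by 1.82 (exact permutation p = 0.0286 and adjusted p = 0.0343 for each). Across the bone, from zone I to zone III, it gained less by 1.77 (exact permutation, adjusted p = 0.0343), but with the median of the 2 Mmp9 probe sets the difference was -0.16 (exact permutation, adjusted p = 0.343). The order of the 2 overall gains thus depended on the Mmp9 probe set, while the unequal steps did not.

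The gelatinases diverged. Mmp9 gained on Mmp2 by 3.34 from zone I to zone II, by 3.49 from zone II to zone III and by 6.83 in all (exact permutation, adjusted p = 0.0343 for each). Mmp14 and Mmp2, activator and substrate, gave a difference of -0.14 from zone I to zone II (exact permutation p = 0.657), where both fell. Under 11 alternatives that difference ranged from -0.85 to 0.018 and never passed (lowest adjusted p = 0.0935 by exact permutation). Mmp14 then gained on Mmp2 by 2.40 from zone II to zone III and by 2.27 from zone I to zone III (exact permutation, adjusted p = 0.0343 for each). The membrane-type enzymes Mmp16 and Mmp14 gave 0.91 in the first step (exact permutation, adjusted p = 0.0623), -2.51 in the second and -1.59 across the bone, the last 2 with an adjusted p of 0.0343 by the same exact test. Without array A of zone II the first and second steps were -3.83 and 2.06 for Mmp9 against Mmp13, 2.86 and 3.96 for Mmp9 against Mmp2, -0.36 and 2.62 for Mmp14 against Mmp2, and 1.16 and -2.75 for Mmp16 against Mmp14. The median of the probe sets gave -4.06 in the second step and -2.62 across the bone for Mmp16 against Mmp14, and 8.39 across the bone for Mmp9 against Mmp2. Between arrays of the same letter the first step of Mmp16 against Mmp14 was 0.82, 0.77, 1.49 and 0.58 for letters A to D, above 0 in all 4, although the test over arrays did not pass.

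**Figure D5:**
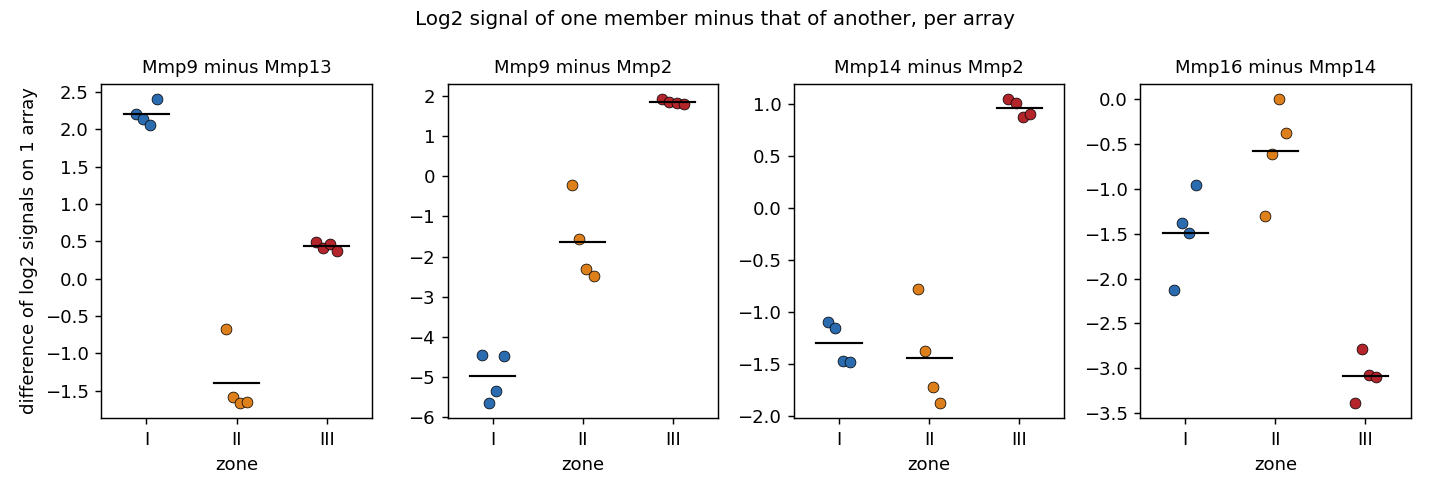
Log2 signal of one member minus that of another on each of the 12 arrays, by zone, for the 4 pairs tested, with a bar at the mean of a zone. Only changes along an axis carry meaning, since the zero of each panel depends on the probes. The difference of Mmp9 and Mmp13 fell from a mean of 2.20 in zone I to -1.39 in zone II and returned to 0.43 in zone III, and that of Mmp14 and Mmp2 overlapped in zones I and II and was higher in zone III.

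The 12 arrays were processed in 3 fluidics runs of 4 arrays, each with all zones. Within every run the differences of Mmp9, Mmp11, Mmp13, Mmp14 and Mmp23 had the same sign as over all arrays in the 3 comparisons. In zone III against zone II, for example, the run values were 2.53, 3.94 and 4.04 for Mmp9 and 2.21, 2.73 and 2.52 for Mmp14. Mmp2 kept its sign in all runs in the comparisons with zone I. The runs gave Mmp11 falls of 0.66, 3.87 and 2.10 in the first step, the smallest in the run with array A of zone II.

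For each tested member the 3 genes whose log2 signal was most alike over the 12 arrays were listed by Pearson's r, as a description. All points share the same arrays and the same 3 zones. For Mmp13 they were Hpgd, Sp7 and Fabp3 (r = 0.997, 0.996 and 0.995), where Sp7, or osterix, is a transcription factor of osteoblasts and hypertrophic chondrocytes. For Mmp9 they were Lpar3, Cbr3 and Phex (0.991, 0.989 and 0.984), where Phex is a peptidase of osteoblasts and osteocytes. For Mmp14 they were Pdgfrb, Sirpa and Serpinf1 (0.995, 0.995 and 0.994). Mmp2 was most like Reck (0.965), Gprasp2 (0.961) and Fam168a (0.958). The values were 0.973 or lower for Mmp11, with Tox3, Brf1 and Gatm (0.973, 0.961 and 0.957), for Mmp23, with Pde12, Slc25a51 and Acad11 (0.955, 0.935 and 0.925), and for Mmp16, with Nfatc3, Nsun4 and Tsn (0.867, 0.844 and 0.843). Among the members the closest pair was Mmp9 and Mmp13 (0.909), and Mmp2 ran against both (-0.678 with Mmp9 and -0.869 with Mmp13).

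Among the inhibitors of these enzymes Timp2 and Timp3 fell and then rose, as Mmp14 did, and Timp1 rose in both steps, as Mmp9 and Mmp13 did. Of the 5 genes listed, Timp4 was under the floor. Shares of all genes called in each comparison, for this list and those that follow, are the ones given with the members. In the first step Timp1 rose (log2 difference 0.91), while Reck, a membrane-anchored inhibitor, fell by 0.99, Timp3 by 0.98, and Timp2 fell as well. In the second Timp3 (1.29), Timp2 (1.10) and Timp1 rose and 0 fell. Over the whole bone Timp1 rose by 1.58 and Reck fell by 0.79. The median over the 4 tested inhibitors was -0.96 in the first step and 0.88 in the second.

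Among 8 activators and inducers, 7 were tested. Zone II had 3 of them higher than zone I, led by the proprotein convertase Pcsk6 (1.49) and by Bsg, an inducer of metalloproteinases also called EMMPRIN (0.47). The convertase Pcsk5 (-1.67) and Plat, tissue plasminogen activator (-0.94), fell. In zone III against zone II Pcsk5 (1.88), Plat (1.87) and Pcsk6 (1.47) rose, and Bsg fell by 0.67. Pcsk6 rose by 2.96 over the whole bone, with Plat (0.93) and Pcsk7 also higher and 0 lower. Plasminogen itself, Plg, was under the floor. The list medians were 0.12, 0.26 and 0.32 for zone II against I, III against II and III against I.

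Of 16 substrates 15 were tested. Into zone II 5 rose and 6 fell, with Col10a1, the collagen of hypertrophic cartilage (8.79), and the bone sialoprotein gene Ibsp (6.16) at one end and Vcan, versican (-3.76), and Col5a1 (-2.35) at the other. The zone I signals of Col10a1 were 4.78 to 6.85, far under the floor, so the sizes of its differences against zone I are uncertain. For Ibsp the step into zone III was 0.02, while its second probe set gave 5.71 into zone II, 2.45 into zone III and 8.16 over the whole bone. The zone I signals of that probe set were 4.52 to 18.5, also under the floor. Into zone III 8 rose and 4 fell. The basement membrane collagens Col4a1 (3.08) and Col4a2 (3.02) rose most, while the cartilage components Acan, aggrecan (-1.54), and Col2a1 (-1.21) fell. Over the whole bone 6 rose and 6 fell, with Col10a1 (8.66) and Ibsp (6.18) highest and Vcan (-1.72) and Acan (-0.98) lowest. The medians were -0.29, 0.50 and -0.02. Without array A of zone II 5 substrates rose and 7 fell in the first step, with a median of -0.41. Of all genes 16% were called higher and 25.4% lower in the first step. The shares were 30.8% and 22.7% in the second step, and 21.6% and 21.7% over the whole bone. In zone III, where Mmp13 and Mmp9 had their highest signals, the 6 chondrocyte markers, Col2a1 and Acan among them, were all lower than in zone II. These values are mRNA signals and not amounts of matrix protein, and a link between substrates and enzymes was not tested.

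Of 13 other family members listed, 9 had a probe set and 3 (Mmp8, Mmp10 and Mmp17) passed the floor. Mmp10, stromelysin 2, a neighbour of Mmp13 and Mmp3 on chromosome 9, had a mean of 7.41 in zone I, while zone II gave 8.29 and zone III 76.9. It rose in zone III against zone II (log2 difference 3.22, limma adjusted p = 1.44e-07) and against zone I (3.38, adjusted p = 1.01e-07). It passed the floor through zone III alone, so the sizes of these differences rest on signals far under the floor. Its promoter window, at chr9:7502092-7502341, held TGAGTCA at bases 63 to 57 before the start. Mmp8, neutrophil collagenase, rose from zone I to zone II by 0.76 (limma adjusted p = 0.02), and Mmp17 passed in no comparison. Mmp8 passed the floor through zone II alone, with means of 31.4, 52.7 and 45.4 along the zones, so its rise rests on signals near the floor.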

How the data were processed

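RNA from 3 zones of the embryonic tibia was hybridized to 12 Affymetrix MOE 430 2.0 arrays, 4 per zone, and groups followed the labels. The authors deposited linear signal intensities, 1 per probe set and array. The study's methods name GCRMA and RMA and the submitters' processing notes RMA, but the values have a trimmed mean of 150.0 on every array, which those methods do not set, and how they were computed is not stated in what was read. Scanner text files served only for the fluidics run. All 12 columns matched a sample.

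Of 45101 probe sets 64 were controls and were left out, 34945 carried 1 gene symbol, 932 several and 9160 none, and only those with 1 symbol named a gene. Log2 signals (nothing added) of the 22255 probe sets whose mean reached 50 in any zone were fitted for the 3 zones together with limma 3.58.1 (lmFit, eBayes) in R 4.3.3. Each comparison had its own Benjamini-Hochberg adjustment, with calls at an adjusted p under 0.05. The fit was tested on simulated data. Pairs of members were compared by exact permutation over arrays. All members were described, and of the pathway lists up to 2 called genes per comparison and direction with the largest difference. Mmp19, under the floor, is given with no floor. The members, lists and pairs were chosen with earlier results of these data known. Alternatives concerned the floor, scaling, pseudocount, fit, blocks, probe set and single arrays. Promoter windows came from a RefSeq table of GRCm38.p6. Figures were drawn with matplotlib 3.10.9.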

Additional observations from a re-analysis of the deposited data

Results flagged for a closer look

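Of 27 groups of 4 arrays (9 members in 3 zones) 1 held an array far from the others. It was Mmp16 in zone III, where array B read 347 and the other arrays 263 to 275. The gap to the nearest array was 0.838 of the whole range, above Dixon's critical value for 4 values at 95%. Chance flags about 1 in 20 such groups. Without that array the log2 difference of Mmp16 between zones III and II was -0.06 in place of 0.03, and neither passed the test.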

How the results depend on the processing

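Under 26 alternatives the calls of Mmp2 (against zone I), Mmp9, Mmp13 and Mmp14 kept their direction and passed the test throughout, as did those of Mmp11 under the 25 that tested it. Without a floor 1 member, Mmp19, was called lower in zone III than in zone II, in place of 0. The number called higher there was 4 to 6, and the changes were at Mmp23 (not passing under 9 alternatives, with leave-one-array-out values of 0.60 to 0.90), at Mmp11 (untested at a floor of 100) and at Mmp2 (called with ribosomal centring).

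The sign of differences that had not passed turned as follows. Median centring gave -0.11 for Mmp2 and -0.21 for Mmp16 in zone III against II, and 0.048 for Mmp16 in zone II against I. For Mmp16 in zone III against II quantile normalization gave -0.13, array weights -0.051, the median of the probe sets -0.41 and leaving out single arrays -0.058 to 0.14. Ribosomal centring gave 0.047 for Mmp16 in zone III against I and -0.015 for Mmp23 in zone II against I. Quantile normalization gave 0.018 for Mmp14 against Mmp2 in the first step. A called difference was lost for Mmp9 against Mmp13 over the whole bone, where the median of the probe sets gave -0.16 in place of -1.77. Ribosomal centring moved the median of all genes by most, to -0.33, 0.48 and 0.15 for zone II against I, III against II and III against I.

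With the letter A to D as a replicate block the counts of members called were the same (2 and 3, 5 and 0, 4 and 1 higher and lower). All genes called went from 4889 to 4986, from 6328 to 6437 and from 5111 to 5206. The block changed no call of a member. The letters may mark the 4 litters, which the labels do not say. Deviations of same-letter arrays correlated at -0.128 to 0.257, over 0.1 in 8 of 12 pairs, with all 4 pairs of zones III and I at 0.142 to 0.19, and in 16 of 24 combinations of an array with another zone the array correlated best with its own letter. With 4 letters in a zone, chance alone would give such a match in 1 of 4 combinations, so own-letter matches were more frequent than that. Not every pair exceeded 0.1, and by that rule the main tests stayed unpaired. The zones of a litter came from the same embryos, and the permutation tests of member pairs took no account of such a pairing. Low signals and 4 arrays per zone limit the folds of Mmp11, Mmp13 and Mmp19 most.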
